A study of Mus musculus with 3 samples.

Results

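Type I interferon response genes were followed in macrophages sorted from the spleens of leukemic mice. The members were 31 named genes, found in the tables by NCBI gene ID and kept where a library held at least 1 FPKM (fragments scaled to gene length and library size). All 31 passed that minimum, of 12961 genes that did so among 17615 listed in any library. Membership rests on gene names known from the interferon literature and uses no measured value, but it was proposed with results of these data in view.

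Type I interferons bind the paired receptor IFNAR1 and IFNAR2, whose kinases JAK1 and TYK2 phosphorylate STAT proteins. With IRF9, these form a complex that binds the interferon-stimulated response element (ISRE) in target promoters and turns on antiviral genes. Macrophages keep many of these genes on at a low level without infection, through small amounts of interferon, and can raise them further when they sense nucleic acids.

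The macrophages came from C57BL/6J recipients, aged 6 to 8 weeks when 800000 leukemia cells carrying GFP and BFP were transplanted without irradiation. Leukemia cells with much mM-CSF, with much sM-CSF or with neither (called control here) gave the 3 groups, and the genotype of the leukemia is not given in the labels. M-CSF is the growth factor that binds the receptor CD115, and the prefixes m and s are left unexplained in the labels. Every group developed acute myeloid leukemia, with survival of 30 to 40 days, and no leukemia-free mice are among the samples. Every level below is therefore that of bulk RNA from cells sorted as macrophages in a leukemic spleen. Marker genes of other cell types were present in it too. Cells negative for GR1, intermediate for CD115 and positive for F4/80 were sorted on day 18, and how many mice went into a library is not given in the sources used here.

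Each group had 1 library, so conditions could not be tested against each other and a difference is one between libraries. Total estimated counts were 9.09e+06 in the control, 8.57e+06 with mM-CSF and 8.94e+06 with sM-CSF. All 13 macrophage markers on a list were present in every library, with summed levels of 1653 FPKM in the control, 1835 with mM-CSF and 1268 with sM-CSF. Below, 3 values in a row follow this order. Among them Csf1r, the gene of CD115, was at 268, 222 and 149 FPKM, and Adgre1, the gene of F4/80, at 101, 67.5 and 65.5 FPKM. Not all of the list went this way. Of the 13 markers 5 lay below the control by any amount with mM-CSF and 10 with sM-CSF, beside 53.3% and 47.3% of all genes. The markers above the control numbered 8 with mM-CSF and 3 with sM-CSF. In bulk RNA from sorted cells, fewer cells of a type and less RNA per cell cannot be told apart.

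The ISRE was looked for in RefSeq promoter windows of the GRCm38.p6 assembly, each 300 bases long with 250 before and 50 after a transcription start. Windows were found for 23 of the 31 members, 28 windows in all. The 8 without one were Mx1, Mx2, Oas2, Usp18, Dhx58, Zbp1, Rtp4 and Parp14. The ISRE letters, GAAA followed by 2 bases of any kind and GAAA again, on either strand, were in 14 of these 28 windows (13 of 23 genes) and in 3.44% of all 32851 windows in the table. The letters TTCNNNGAA, the core of the GAS element of interferon-responsive promoters, were in 7 of the 28 windows and in 8.30% of all windows. In 9 of the 23 members the ISRE letters lay upstream of the start, as they did in 2.98% of all windows. These stretches are shown because they are a sequence feature that part of the list shares. Capitals mark the ISRE letters, with overlapping matches run together, and TTTC, 2 bases of any kind and TTTC is the same motif read from the other strand. Each line is written along its gene's own strand.
Rsad2: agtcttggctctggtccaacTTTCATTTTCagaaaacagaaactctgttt
Ifit1: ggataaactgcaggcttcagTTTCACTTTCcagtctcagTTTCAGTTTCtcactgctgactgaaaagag
Ifit3: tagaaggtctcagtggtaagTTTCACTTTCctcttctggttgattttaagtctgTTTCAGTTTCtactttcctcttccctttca
Oas3: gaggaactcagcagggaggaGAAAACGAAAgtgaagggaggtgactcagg
Stat2: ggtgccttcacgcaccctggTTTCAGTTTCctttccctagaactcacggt
Trim30a: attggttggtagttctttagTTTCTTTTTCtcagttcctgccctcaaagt
Oas1a: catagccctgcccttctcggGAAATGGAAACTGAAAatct
Isg15: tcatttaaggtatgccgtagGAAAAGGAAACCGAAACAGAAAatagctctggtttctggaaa
Bst2: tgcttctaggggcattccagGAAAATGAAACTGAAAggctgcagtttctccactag

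The stretches lie at chr12:26456543-26456592, minus strand (Rsad2), chr19:34640765-34640833, plus strand (Ifit1), chr19:34583353-34583436, plus strand (Ifit3), chr5:120777705-120777754, minus strand (Oas3) and chr10:128270256-128270305, plus strand (Stat2). The others lie at chr7:104465200-104465249, minus strand (Trim30a), chr5:120907526-120907565, minus strand (Oas1a), chr4:156200855-156200916, minus strand (Isg15) and chr8:71537567-71537622, minus strand (Bst2). All are upstream flanking sequence of that assembly. Isg15 held 3 overlapping matches, Oas1a and Bst2 2 overlapping matches each, and Ifit1 and Ifit3 2 separate ones each. The letters were present in the member that was highest in the mM-CSF library against the control (Bst2) as well as in the one that was lowest (Rsad2). Of the 13 members with ISRE letters in a window, 6 were at least 2-fold lower in the mM-CSF library, and of the 10 without them 2 were, beside 14.3% of 414 genes with the letters and 11.3% of 9730 without them in the whole table. Not counted here are Mx1, Oas2, Usp18 and Parp14, which had no window and were also at least 2-fold lower. Among the members the contrast by ISRE letters went once the trend of the differences on gene length was removed (a running median over genes of like length, subtracted), with 3 of 13 and 2 of 10 members lower. Over all genes it stayed, with 10.4% of those with the letters lower and 5.51% of those without them.

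The interferon response genes were mostly lowest in the mM-CSF library, with the sM-CSF library between it and the control. The level of 27 of 31 members was lowest in the mM-CSF library, where 48.3% of all genes at the minimum were lowest, and the order control, sM-CSF, mM-CSF from high to low was that of 23 members and of 31.8% of all genes. Changes are given on the log2(FPKM + 1) scale, which makes those of low genes look smaller than they are. Genes were called higher or lower past a change of 1 (2-fold) in size, provided that 5 FPKM was reached in the higher library. Against the control, 12 members were lower and 1 higher in the mM-CSF library, where 11.4% of all genes were lower and 6.77% higher. The median difference was -0.86 over the members and -0.07 over all genes. In the sM-CSF library 1 member was lower and 0 higher, beside 1.22% and 0.586% of all genes, and the median was -0.20 over the members and 0.02 over all genes. These comparisons share the control library.

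**Figure D1:**
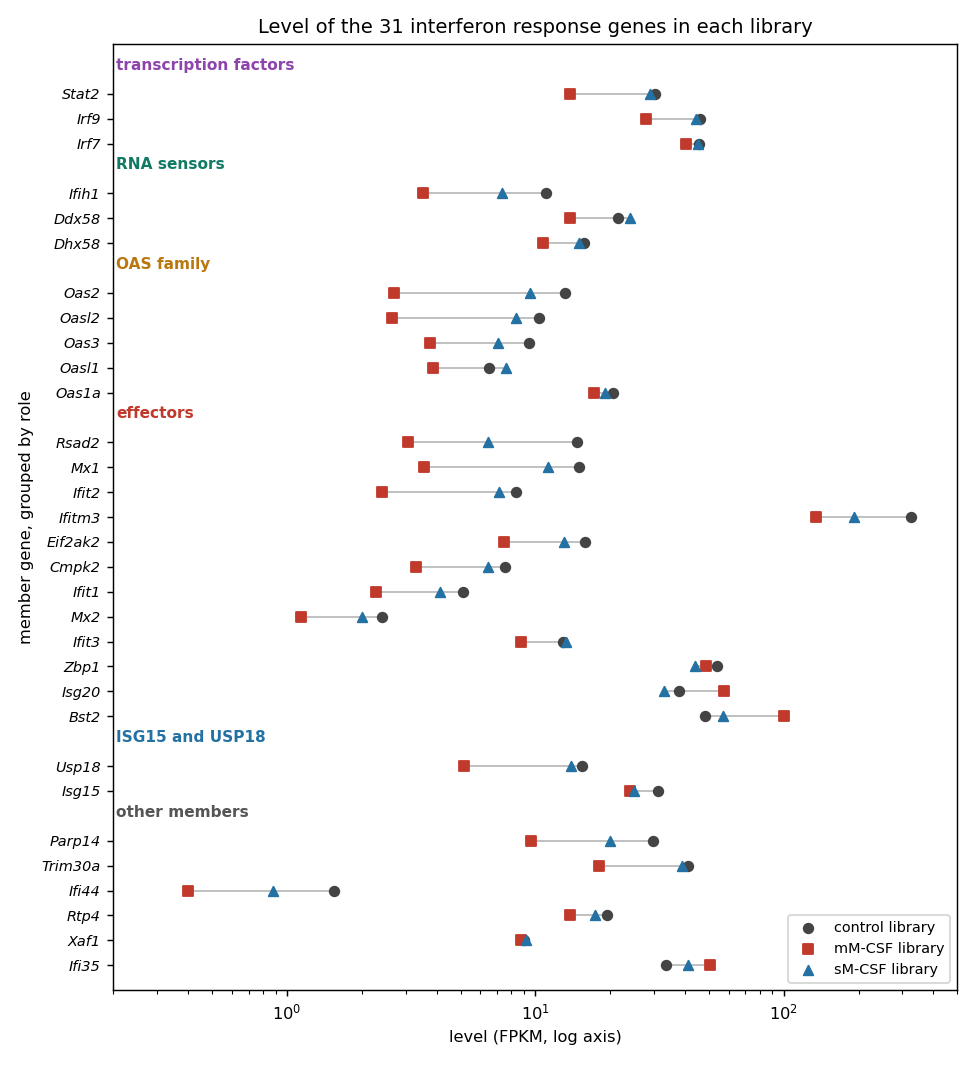
Level of each member in the control (grey circles), mM-CSF (red squares) and sM-CSF (blue triangles) libraries, in FPKM on a log axis, with members grouped by role and 1 library per group. The mM-CSF square is leftmost for 27 of 31 members, and Bst2, Isg20 and Ifi35 are the 3 members at their highest in that library.

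Of the 3 members that encode transcription factors of the pathway, 1 was lower by the 2-fold rule in the mM-CSF library, beside 11.4% of all genes. Stat2, a subunit of the complex that binds the ISRE, was at 30.3 FPKM in the control, against 13.8 with mM-CSF and 29.0 with sM-CSF. Its share of the counts was 2.18-fold lower in the mM-CSF library than in the control (95% counting interval 1.97 to 2.42), while the sM-CSF and control values lay within counting error of each other. Irf9, the subunit that recognises the ISRE, was at 45.8, 27.8 and 44.4 FPKM in the same order, a difference of -0.70 in the mM-CSF library that stayed short of 2-fold. Irf7, which amplifies interferon production and is itself induced by interferon, was at 45.5, 40.5 and 45.0 FPKM, nearly level across the libraries. With the length trend removed none of the 3 passed the rule, at -0.73 for Irf9, -0.56 for Stat2 and -0.44 for Irf7, and Stat2 also fell short with median-of-ratios scaling (-0.99). The interval given here and below is an exact conditional (Clopper-Pearson) one for the ratio of the shares of counts. It covers counting error only, and that not in full, because reads without molecular identifiers are not independent molecules.

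Of the 3 cytosolic RNA sensors 1 was lower by the 2-fold rule in the mM-CSF library, beside 11.4% of all genes. With the length trend removed 0 were, beside 6% of all genes, with Ifih1 at -0.71 and Ddx58 at 0.04. Ifih1, which encodes MDA5, a sensor of long double-stranded RNA, was at 11.01 FPKM in the control, against 3.51 with mM-CSF and 7.31 with sM-CSF. That is a 3.11-fold lower share with mM-CSF (2.62 to 3.72) and a 1.5-fold lower one with sM-CSF (1.32 to 1.72). Ddx58, the gene of RIG-I, which senses RNA ends, was at 21.6, 13.8 and 24.1 FPKM, so that the sM-CSF library was the highest of the 3. Dhx58, the gene of the regulatory helicase LGP2, was at 15.6, 10.7 and 15.0 FPKM. Only Ifih1 of these 3 passed the 2-fold rule.

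The OAS family makes oligoadenylates that activate RNase L. In the mM-CSF library 3 of its 5 members were lower by the 2-fold rule, beside 11.4% of all genes. With the length trend removed 2 of the 5 were, beside 6% of all genes. Oas2 was at 13.1 FPKM in the control, against 2.70 with mM-CSF and 9.53 with sM-CSF, a 4.82-fold lower share in the mM-CSF library (3.84 to 6.10) and a 1.37-fold lower one in the sM-CSF library (1.19 to 1.59). Oasl2 was at 10.3, 2.65 and 8.37 FPKM, 3.86-fold lower in the mM-CSF library (2.98 to 5.07). Oas3 was at 9.39, 3.75 and 7.09 FPKM, 2.49-fold lower (2.06 to 3.01). The other 2 did not pass the rule. Oasl1, which represses translation of Irf7 mRNA, was at 6.48, 3.88 and 7.62 FPKM, and Oas1a at 20.6, 17.2 and 19.0 FPKM. The family thus ran from a difference of -1.93 for Oas2 to -0.24 for Oas1a in the mM-CSF library, and the median of its 5 members was -1.13.

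Of the 12 antiviral effectors 4 were lower and 1 higher in the mM-CSF library, beside 11.4% and 6.77% of all genes. In the sM-CSF library 1 was lower, beside 1.22% of all genes. With the length trend removed 4 were lower and 0 higher with mM-CSF, beside 6% and 2.29% of all genes. Rsad2 encodes viperin, which makes a chain-terminating nucleotide against viral polymerases. It was at 14.7 FPKM in the control, against 3.07 with mM-CSF and 6.44 with sM-CSF, so both M-CSF libraries lay below the control. It was the only member past the 2-fold rule in the sM-CSF library, with a 2.27-fold lower share (1.94 to 2.67), and was 4.74-fold lower in the mM-CSF library (3.82 to 5.93). Cmpk2, a mitochondrial nucleotide kinase gene, was at 7.52, 3.30 and 6.42 FPKM, just short of the rule in the mM-CSF library with a difference of -0.99.

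Mx1, a dynamin-like GTPase gene that acts against influenza virus and is defective in C57BL/6 mice, was at 15.0 FPKM in the control, against 3.56 with mM-CSF and 11.2 with sM-CSF. Its share was 4.18-fold lower in the mM-CSF library (3.30 to 5.36). Its relative Mx2 was low everywhere, at 2.41, 1.14 and 2 FPKM, and with under 5 FPKM in every library could not pass the rule. The IFIT genes, whose products bind viral RNA and block its translation, were lower in the mM-CSF library to different degrees. Ifit2 was at 8.35, 2.42 and 7.15 FPKM (3.43-fold lower, 2.68 to 4.43), Ifit1 at 5.10, 2.27 and 4.14 FPKM, and Ifit3 at 12.9, 8.78 and 13.3 FPKM. Only Ifit2 of these passed the rule.

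Ifitm3, which keeps viruses from fusing with endosomal membranes, was by far the most abundant member per unit length in the control, at 326 FPKM, with 135 in the mM-CSF library and 191 with sM-CSF. Its share was 2.41-fold lower in the mM-CSF library (2.21 to 2.63) and 1.70-fold lower in the sM-CSF library (1.58 to 1.84), short of the rule in the latter. The levels of all 31 members summed to 958, 644 and 771 FPKM, and without Ifitm3 to 632, 509 and 580. Eif2ak2, the gene of the RNA-dependent kinase PKR that halts translation, was at 15.8, 7.47 and 13.1 FPKM, a difference of -0.99. Zbp1, a sensor of Z-form nucleic acids that can start cell death, was at 53.9, 48.7 and 43.9 FPKM, 1 of the 2 members lowest in the sM-CSF library. The transcript length the tables gave Zbp1 differed between libraries, so its FPKM and its share of counts do not move alike.

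Bst2 and Isg20 went the other way. Bst2 encodes tetherin, which holds budding virions on the cell surface, and was at 48.3 FPKM in the control, against 100.3 with mM-CSF and 56.9 with sM-CSF. It was the 1 member higher by the 2-fold rule, with a 2.09-fold higher share in the mM-CSF library (1.84 to 2.38). Isg20, the gene of an exonuclease that degrades single-stranded RNA, was at 37.9, 57.2 and 32.9 FPKM, 1.5-fold higher in the mM-CSF library (1.3 to 1.72). Tetherin is also a surface marker of plasmacytoid dendritic cells and of plasma cells. In the mM-CSF library 5 of 8 plasma cell markers were higher and 0 lower, where 6.77% of all genes were higher and 11.4% lower. The summed level of these markers was 1438, 4447 and 1494 FPKM, with none at 0. Their part in the result was not tested. The plasmacytoid dendritic cell list had 1 of 13 markers higher and 2 lower in the mM-CSF library, with summed levels of 421, 404 and 381 FPKM and none at 0, and its defining gene Siglech was at 6.90, 3.37 and 5.69 FPKM.

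The ubiquitin-like modifier and its protease differed in size of change. Isg15, whose product is attached to other proteins, was at 31.04 FPKM in the control, against 24.1 with mM-CSF and 24.9 with sM-CSF. Usp18, which removes ISG15 from proteins and restrains signalling at IFNAR2, was at 15.4, 5.17 and 13.9 FPKM. The share of Usp18 was 2.95-fold lower in the mM-CSF library than in the control (2.28 to 3.85), and that of Isg15 was 1.28-fold lower (1.03 to 1.59). As measured, the sM-CSF library was near the control for Usp18 and near the mM-CSF library for Isg15. With the length trend removed Isg15 differed from the control by -1.18 with mM-CSF and -0.54 with sM-CSF, and Usp18 by -1.70 and -0.24.

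Of the other 6 members 2 were lower in the mM-CSF library, beside 11.4% of all genes. With the length trend removed 0 were, beside 6% of all genes. Parp14, an ADP-ribosyltransferase gene, was at 29.7 FPKM in the control, against 9.62 with mM-CSF and 20.02 with sM-CSF, 3.07-fold lower in the mM-CSF library (2.80 to 3.36). Trim30a, a member of the TRIM family, was at 41.0, 18.01 and 38.8 FPKM, 2.26-fold lower (2.05 to 2.49). Rtp4, at 19.4, 13.8 and 17.4 FPKM, stayed short of the rule, and Xaf1, whose product binds the apoptosis inhibitor XIAP, was level at 9.02, 8.74 and 9.14 FPKM. Ifi35 was highest in the mM-CSF library, at 33.5, 50.6 and 41.1 FPKM. Ifi44 was the lowest member and the one nearest the minimum, at 1.54, 0.40 and 0.88 FPKM from estimated counts of 40.9, 10.0 and 23.0, and its 3.87-fold lower share in the mM-CSF library had a wide interval (1.90 to 8.66).

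**Figure D2:**
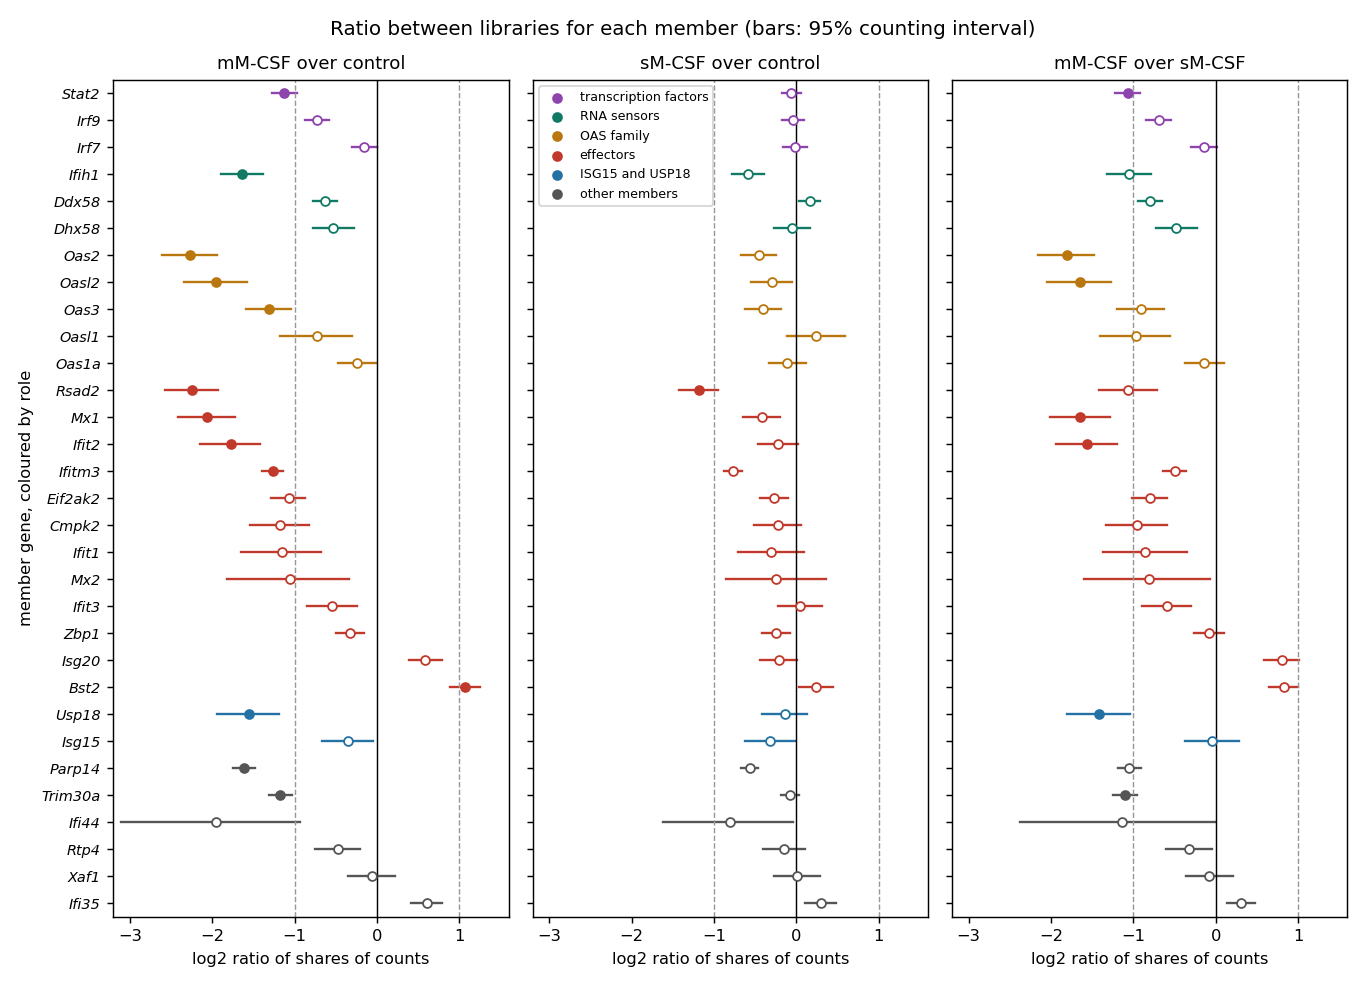
Log2 ratio of the share of estimated counts between libraries for each member, with 95% counting intervals as bars, a panel per comparison, and dashed lines at 2-fold. Filled points passed the 2-fold rule on log2(FPKM + 1), namely 13 members for mM-CSF over control, 1 for sM-CSF over control and 7 for mM-CSF over sM-CSF.

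The counting interval excluded a ratio of 1 for most members in the mM-CSF library against the control, though it came close to 1 for some, such as Isg15 and Oas1a. The interval lay below a ratio of 1 for 26 members and above it for 3 (Bst2, Isg20 and Ifi35), beside 40.5% and 32.7% of all genes, and held 1 for 2 (Irf7 and Xaf1). In the sM-CSF library the interval lay below 1 for 12 members and above it for 3 (Ddx58, Bst2 and Ifi35), beside 24.3% and 22.8% of all genes, and held 1 for 16. Differences of the sM-CSF library ran from -1.07 for Rsad2 to 0.28 for Ifi35. After Rsad2 the members furthest below the control there were Ifitm3 (-0.77), Parp14 (-0.55) and Ifih1 (-0.53). With no second library in a group, differences between mice or sorts of the same group are not in these intervals.

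The mM-CSF and sM-CSF libraries were also compared with each other. Against the sM-CSF library 7 members were lower in the mM-CSF library and 0 higher, where 6.45% and 2.8% of all genes were, and the median was -0.66 over the members and -0.11 over all genes. The 7 were Oas2 (-1.51), Mx1 (-1.42), Oasl2 (-1.36), Usp18 (-1.27), Ifit2 (-1.25), Trim30a (-1.07) and Stat2 (-1.02). For Rsad2, at 3.07 and 6.44 FPKM, the difference was -0.87. Bst2 and Isg20 were the members furthest above the sM-CSF library, at 0.81 and 0.78. The counting interval of the share ratio lay below 1 for 23 members and above it for 3, beside 39.9% and 27.4% of all genes.

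Differences of the mM-CSF library followed gene length across the whole table, and the members were read against that trend. Among genes under 1500 bases the median difference from the control was 0.67 over 2932 genes and 0.22 over 6 members. Between 1500 and 3000 bases it was 0.11 over 4656 genes and -0.62 over 13 members, and from 3000 bases it was -0.53 over 5373 genes and -1.28 over 12 members. In the longest class 9 of 12 members were lower by the 2-fold rule, beside 21.4% of all genes of that length. In the middle class 2 of 13 were (Mx1 and Usp18), beside 4.88%, and in the shortest 1 of 6 (Ifitm3), beside 3.58%. The members as a list were not long, with a median length of 2556 bases against 2616 for all genes.

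With the running median over 20 length bins subtracted, 8 members were lower and 0 higher in the mM-CSF library, beside 6% and 2.29% of all genes, and the median over the members was -0.73. The 8 were Ifitm3 (-2.07), Mx1 (-1.73), Usp18 (-1.70), Rsad2 (-1.57), Oas2 (-1.54), Oasl2 (-1.46), Isg15 (-1.18) and Ifit2 (-1.05). Of these, 7 had also passed the rule without the subtraction, and Isg15 had not. Parp14 (-0.61), Ifih1 (-0.71), Trim30a (-0.77), Oas3 (-0.51) and Stat2 (-0.56), which are all over 3000 bases long, fell short of 2-fold once the trend was removed. The excess of Bst2, from a short gene of 866 bases, went from 1.04 to 0.24, that of Ifi35 from 0.58 to 0.05, and Isg20 turned from 0.58 to -0.16. Ddx58, a gene of 4943 bases, went from -0.61 to 0.04.

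**Figure D3:**
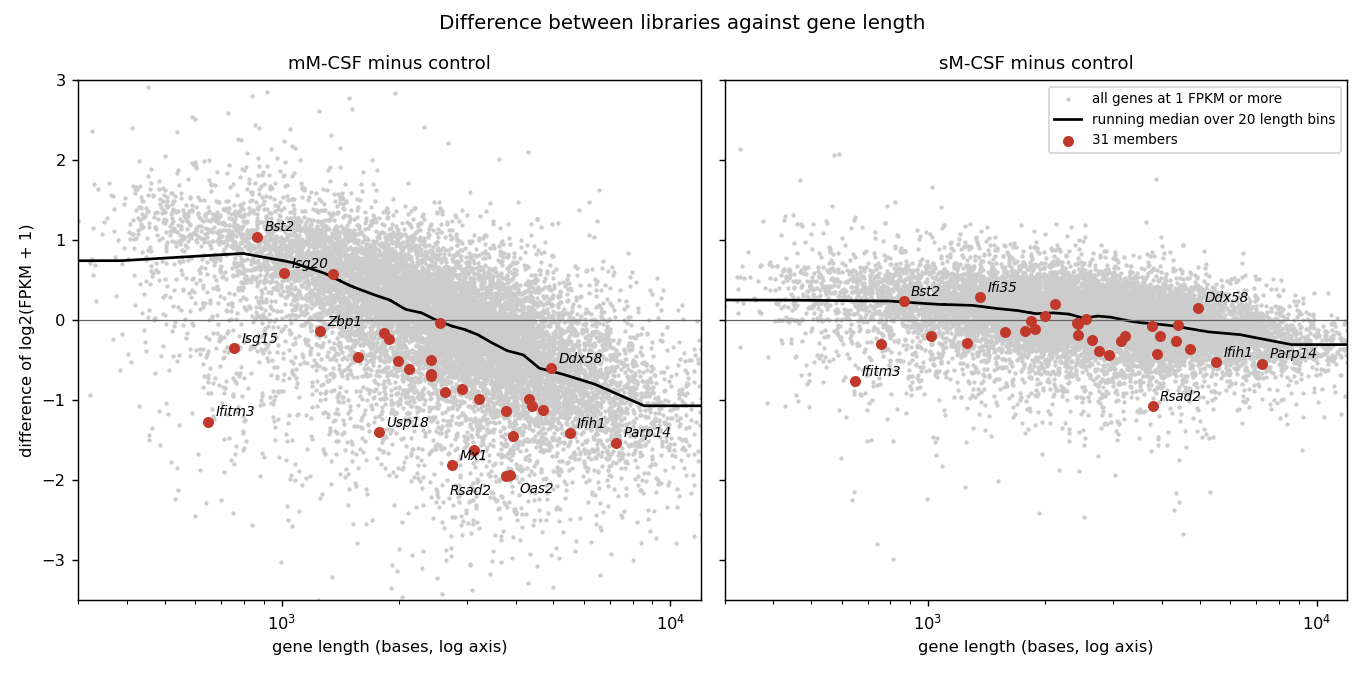
Difference of log2(FPKM + 1) from the control against gene length in bases (log axis) for all genes at 1 FPKM or more (grey), with the running median (black line) and the 31 members (red), for the mM-CSF (left) and sM-CSF (right) libraries; genes beyond the axis limits are not drawn. Bst2, Isg20 and Ifi35 lie near the line in the mM-CSF panel, while Ifitm3, Isg15, Usp18, Mx1, Rsad2 and Oas2 lie well below it.

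The trend was weaker in the sM-CSF library. There its removal left Rsad2 at -1.03 and brought Ifitm3 from -0.77 to -1.01, so that 2 members were lower and 0 higher, beside 1.32% and 0.393% of all genes. Between the M-CSF libraries, 5 members were lower and 0 higher with the trend removed, beside 3.29% and 1.5% of all genes. These were Usp18 (-1.46), Mx1 (-1.27), Oasl2 (-1.17), Oas2 (-1.15) and Ifitm3 (-1.05).

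Signalling genes upstream of the members were described from lists, whose counts in the mM-CSF library are to be read against the 11.4% of all genes lower there. Of the interferon ligand genes looked for, 12 had no row in the tables, among them Ifnb1, and Ifne and Ifnz stayed under 1 FPKM. Ifng, the type II interferon gene, was at 5.72, 6.02 and 4.49 FPKM. The receptor genes Ifnar1, at 35.0, 25.7 and 37.5 FPKM, and Ifnar2, at 74.6, 74.98 and 72.1 FPKM, did not pass the 2-fold rule. Among 9 receptor and kinase genes 1 was lower with mM-CSF and 0 with sM-CSF, with medians of -0.46 and -0.00, a share of lower genes near that of all genes. The lower gene was Jak2, at 59.5, 12.96 and 47.5 FPKM, a kinase of the type II rather than the type I receptor. The type I receptor kinases were at 90.6, 53.2 and 90.8 FPKM (Jak1) and at 37.0, 20.7 and 37.5 FPKM (Tyk2).

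Among 12 IRF and STAT genes outside the members 1 was lower in the mM-CSF library, Stat3, at 69.4, 29.2 and 51.8 FPKM, and the median was -0.66. Of 22 nucleic acid sensing genes 7 were lower and 0 higher in the mM-CSF library, with a median of -0.66, and 0 passed the rule in the sM-CSF library (median -0.10). The endosomal receptors Tlr9 (50.6, 5.41 and 31.7 FPKM), Tlr7 (45.2, 11.3 and 24.1), Tlr3 (7.21, 1.44 and 5.09) and Tlr8 (14, 4.85 and 7.31) were among the 7. Of 13 inhibitor genes 1 was lower, Socs3, at 24.7, 10.2 and 13.4 FPKM, and the median was -0.43. On removal of the length trend the mM-CSF medians were -0.18 for receptors and kinases and -0.37 for IRF and STAT genes. They were -0.45 for nucleic acid sensing and -0.12 for inhibitors, and each of these medians was nearer 0 than that of the members. On that scale 3 of the 22 sensing genes, 0 of the 12 IRF and STAT genes and 1 each of the receptor and inhibitor genes were lower. Over all genes 6% were lower on the same scale.

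A wider list held 80 further interferon-stimulated genes. With mM-CSF 12 were lower and 2 higher (median -0.32), beside 11.4% and 6.77% of all genes (median -0.07). The share of lower genes was thus somewhat above that of all genes, and the share of higher ones under it. With sM-CSF 2 were lower and 0 higher (median 0.00), beside 1.22% and 0.586% of all genes. Removal of the length trend left 11 lower and 1 higher with mM-CSF (median -0.30), beside 6% and 2.29% of all genes, and 4 lower and 0 higher with sM-CSF (median -0.04), beside 1.32% and 0.393%. The lowest in the mM-CSF library at 5 FPKM or more were Cd274, the gene of the checkpoint ligand PD-L1, at 45.3, 7.33 and 30.8 FPKM, Ifi207, at 31.6, 6.29 and 13.7 FPKM, Ifitm6, at 115.2, 25.5 and 90.1 FPKM, and Helz2, at 42.7, 12.6 and 37.4 FPKM. The 2 higher genes were Fcgr1, an Fc receptor gene at 9.71, 26.4 and 12.2 FPKM, and Psmb8, an immunoproteasome subunit gene at 142.7, 294.6 and 176.0 FPKM. Ifi204 and Ifi207 were the 2 lower genes in the sM-CSF library, with Ifi204 at 21.8, 10.8 and 7.86 FPKM. No test of the difference between these lists and the members was possible.

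**Figure D4:**
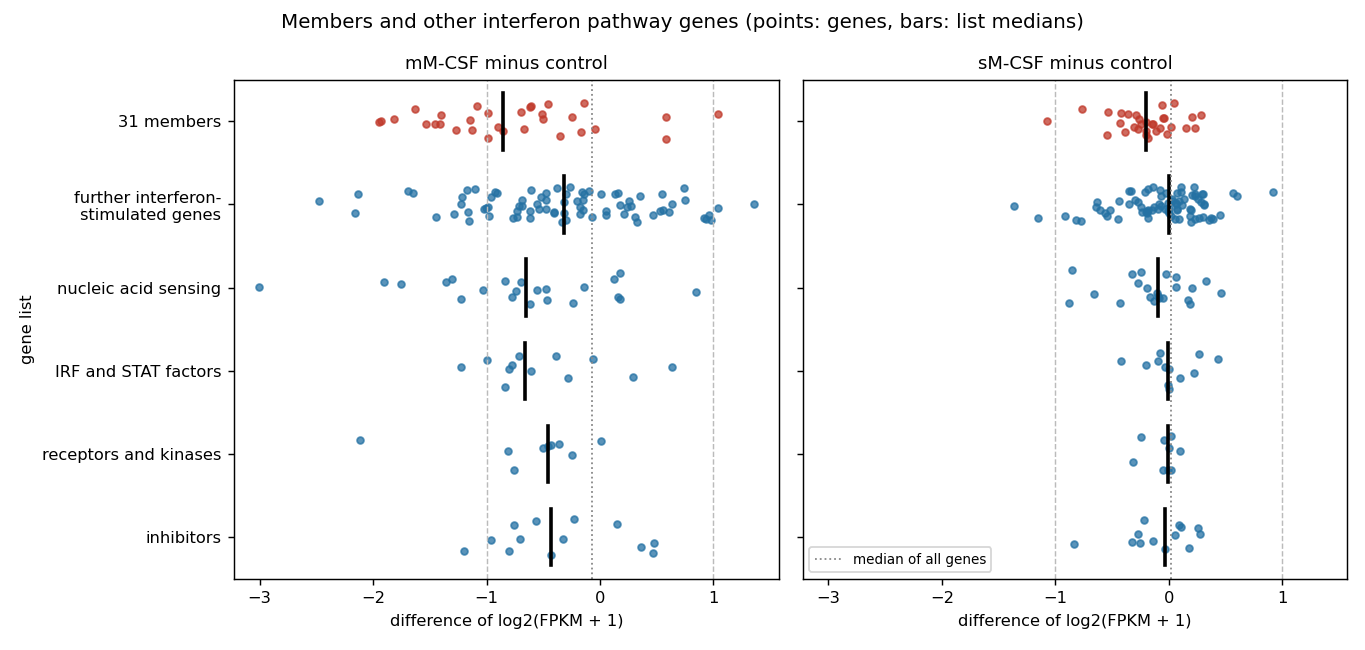
Difference of log2(FPKM + 1) from the control for the 31 members (red) and for genes of 5 other lists of the interferon pathway (blue), with list medians as black bars, 2-fold as dashed lines and the median of all genes dotted, for the mM-CSF (left) and sM-CSF (right) libraries. The members have the lowest median in both panels, -0.86 and -0.20.

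Near relatives of members, chosen after the values were seen, are given because reads can be divided between such copies. Ifit3b was at 4.99, 2.04 and 4.28 FPKM and Oas1g at 3.81, 2.13 and 1.82 FPKM. Ifitm2, next to Ifitm3 in the family, was at 259.8, 161.1 and 146.8 FPKM. Like Ifitm3 it was lower in both M-CSF libraries than in the control, with differences of -0.69 and -0.82. Estimated counts were not whole in at least 1 library for 15 of the 31 members, among them Ifit1, Ifit3, Isg15, Mx1, Mx2, Oas1a, Oas3, Oasl2, Trim30a and Ifitm3, and levels of these are uncertain to that extent.

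Markers of other spleen cells differed between the libraries as well, some lists being lower and others higher in the mM-CSF library. Over all genes 11.4% were lower and 6.77% higher with mM-CSF, and 1.22% and 0.586% with sM-CSF. With the length trend removed these shares were 6% and 2.29%, and 1.32% and 0.393%. Non-classical monocyte genes were lower in 7 of 10 cases with mM-CSF and 6 of 10 with sM-CSF, with summed levels of 1457, 576 and 686 FPKM. Conventional dendritic cell genes were lower in 7 of 10 cases with mM-CSF and 0 with sM-CSF, with summed levels of 469, 156 and 434 FPKM. B cell genes summed to 1497, 2868 and 2752 FPKM, with 3 of 10 higher in each M-CSF library and 1 lower in the mM-CSF library, and 0 higher or lower in either once the length trend was removed. Erythroid genes were lower in 4 of 8 cases in each M-CSF library, and in 7 and 5 with the length trend removed, with summed levels of 3074, 2384 and 2044 FPKM. Neutrophil genes summed to 85.1, 281 and 82.6 FPKM, with 4 of 10 higher and 1 lower with mM-CSF. T cell genes summed to 356, 682 and 610 FPKM, and granule genes of immature myeloid cells to 163, 841 and 166 FPKM, with 6 of 6 higher in the mM-CSF library. Classical monocyte genes summed to 228, 441 and 304 FPKM, with 1 of 7 higher and 0 lower with mM-CSF. NK cell genes summed to 312, 578 and 388 FPKM, with 1 of 8 higher and 0 lower with mM-CSF. None of the genes on these lists that reached 1 FPKM in any library was at 0 in another. Their part in the levels of the interferon response genes was not tested.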

How the data were processed

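RNA sequencing libraries of sorted splenic macrophages, 1 per group, were analysed from the tables the authors deposited. Per the file headers, each row holds an NCBI gene ID with its length, expected count and FPKM value. The expected counts are the authors' estimates of reads per gene. The deposited FPKM values were scaled by the authors to gene length and mapped fragments. The submitters' processing notes name Bowtie2 (2.2.5) and RSEM without roles. The sources used here give no genome build, annotation or use of strand. Genes without a row in a table were taken as 0.

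Gene IDs were matched to symbols through a RefSeq table of GRCm38.p6, which left 54 genes without one. Differences of log2(FPKM + 1) were taken in 3 comparisons over genes at 1 FPKM or more in any library. Counts were rounded for the intervals. Steps were tested on simulated data. Analyses used Python 3.11.15, pandas 2.3.3 and scipy 1.17.1. The members and the 18 further lists were chosen with earlier results of these data known. All members could be named, and of each list up to 4 genes with the largest difference and 5 FPKM, and pathway receptors, kinases and cell markers fixed by name. Alternatives covered the pseudocount, minimum, scaling, size rule, length trend and counts that were not whole.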

Additional observations from a re-analysis of the deposited data

How the results depend on the processing

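In 70 of 87 recomputed counts and medians of the members, counts stayed within 1.5-fold or medians moved by no more than the typical counting error of a single member. That error, a median half-width of 0.27, 0.22 and 0.28 log2 in the 3 comparisons, is not the error of a median over the members. Some of the 70 were fixed beforehand. Dropping the 1 FPKM minimum could change nothing, as all 31 members passed it, and a minimum of 5 FPKM could not change the counts. A pseudocount of 5 left 6 members lower and 0 higher in the mM-CSF library against the control with a median of -0.50, 0 lower in the sM-CSF library, and 0 lower between the M-CSF libraries, since it shrinks differences of low genes. Rescaling to TPM gave 19 lower and 0 higher against the control with a median of -1.40, and 16 lower between the M-CSF libraries with a median of -1.0. The median over all genes went down with it, by -0.43, -0.13 and -0.30 in the mM-CSF, sM-CSF and mM-CSF against sM-CSF comparisons, and the share of calls over all genes that were higher from 37.2% to 7.62% in the first. Median-of-ratios scaling added 0.11 to the median over all genes between the M-CSF libraries and the share of higher calls there from 30.3% to 48.8%. Removing the trend on gene length left 0 members higher in the mM-CSF library and 2 lower in the sM-CSF library. Leaving out members whose counts were not whole left 7 lower of 16 against the control and 4 lower between the M-CSF libraries. A 1.5-fold rule gave 2 lower in the sM-CSF library, and 16 lower and 2 higher between the M-CSF libraries. Under the scalings and the trend removal, 3 members changed sign in at least 1 setting in the mM-CSF library against the control (Ddx58, Isg20 and Xaf1), 3 in the sM-CSF library (Ifit3, Stat2 and Xaf1) and 4 between the M-CSF libraries (Ifi35, Isg15, Xaf1 and Zbp1), none of them past the 2-fold rule in that comparison as reported. Ddx58 ran from -1.07 with TPM, past the rule, to 0.04 with the trend removed. No paired analysis was possible because each group has 1 library. Members at a few FPKM, such as Ifi44 and Mx2, rest on few reads, so only large differences were detectable at this depth.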
